A study of Mus musculus with 6 samples.

Results

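This account covers 38 genes of autophagy and of the lysosome in the newborn mouse ovary, out of 25164 gene symbols measured. They were taken by symbol from the day 1 expression table, and all 38 were found. RNA of whole day 1 ovaries from C57BL/6 mice was sequenced in 6 libraries. Of these, 3 came from animals with the genotype hnRNPL flox/flox;Stra8-cre (cKO) and 3 from animals labelled wild type, with no treatment arm and no other allele named. The Stra8-cre transgene drives Cre in germ cells, so the floxed gene is expected to be cut there and to stay intact in the somatic cells that make up much of the tissue. The labels do not say whether the wild type animals were littermates, whether they carried either allele, or whether each library is a separate animal. The p-values thus reflect no more than the spread between these libraries, which may be technical. The protocol text common to all 6 libraries also speaks of a hormone challenge, with no more detail in the sources used here.

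Autophagy encloses cytoplasm in a double membrane, the autophagosome, and delivers it to the lysosome for breakdown. When nutrients are plentiful, the kinase complex mTORC1 holds back the ULK1 kinase that starts the process and keeps the transcription factors TFEB and TFE3 out of the nucleus, where they would switch on genes of autophagy and of the lysosome. In the perinatal mouse ovary the pathway is known for sustaining germ cells: loss of Atg7 or of a copy of Becn1 lowers the number of oocytes in the newborn. The protein of Hnrnpl binds RNA and steers splicing, and the title of the series names mTOR splicing and the formation and activation of primordial follicles.

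TFEB and TFE3 bind the palindrome TCACGTGA, the core of the regulatory element found near many lysosomal genes. The 250 bases before a transcription start are shown for the 4 members whose promoter window held that palindrome. They are shown because the log2 fold changes of these genes were of both signs in the comparison described further on, where none passed. The genes were not tested against each other. The letters are from RefSeq (GRCm38.p6, 5′ to 3′ on the strand of the gene), and the palindrome is in capitals.
Mcoln1, plus strand of chr8:3500269-3500518: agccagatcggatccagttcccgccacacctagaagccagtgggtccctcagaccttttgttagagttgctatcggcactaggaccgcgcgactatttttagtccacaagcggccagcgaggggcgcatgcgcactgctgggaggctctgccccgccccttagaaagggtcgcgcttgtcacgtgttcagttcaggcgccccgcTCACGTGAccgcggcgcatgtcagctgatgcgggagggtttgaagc
Ctsd, minus strand of chr7:142387828-142388077: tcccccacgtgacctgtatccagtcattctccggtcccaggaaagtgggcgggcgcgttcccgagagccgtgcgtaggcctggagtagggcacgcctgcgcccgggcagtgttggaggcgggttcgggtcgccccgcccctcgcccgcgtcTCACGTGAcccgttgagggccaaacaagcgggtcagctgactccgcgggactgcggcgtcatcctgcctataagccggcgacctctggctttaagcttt
Atg3, plus strand of chr16:45158579-45158828: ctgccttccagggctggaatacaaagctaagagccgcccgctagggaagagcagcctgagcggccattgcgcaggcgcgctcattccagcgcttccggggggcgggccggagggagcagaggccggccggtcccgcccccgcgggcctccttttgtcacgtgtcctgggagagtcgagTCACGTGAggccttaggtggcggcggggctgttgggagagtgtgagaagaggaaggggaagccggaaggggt
Ctsa, plus strand of chr2:164833523-164833772, before another annotated start: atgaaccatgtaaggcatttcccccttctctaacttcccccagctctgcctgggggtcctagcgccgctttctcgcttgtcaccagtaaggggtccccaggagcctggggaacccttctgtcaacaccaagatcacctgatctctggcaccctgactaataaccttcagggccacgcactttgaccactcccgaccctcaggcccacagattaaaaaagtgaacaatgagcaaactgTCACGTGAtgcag

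The palindrome began 46 bases before the start in Mcoln1, 99 in Ctsd, 72 in Atg3 and 13 in Ctsa, where another copy lay just after the start. Windows of 300 bases, from 250 before to 50 after the start, were held for 31 of the 38 members, with 35 windows in all. Atg12, Atg16l1, Becn1, Ctsb, Map1lc3a, Pik3c3 and Rb1cc1 had none. TCACGTGA, which reads the same on both strands, was in 4 of the 35 windows (11.4%) and in 0.974% of all 32851 windows of that length. The shorter TCACGTG, searched on both strands and contained in the palindrome, was in 8 (22.9%), against 3.77% of all windows. It added Atg14, Atg7, Gaa and Lamp1 to the 4 genes above. The hexamer CACGTG, contained in both, was in 10 (28.6%), against 7.15%, and added Atg5 and Ctsl. An ATF4-type element, TGATGCAA on either strand, was in 0 of the 35 windows and in 0.895% of all. A match is a description of letters and not a measured binding site.

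Expression was deposited as FPKM, fragments corrected for transcript length and for the mapped total of the library, so levels can be compared between genes. Depth is not given in the files and was estimated from the smallest steps between FPKM values at 7200000 to 14400000 fragments per library, lowest in cKO replicate 1. There 1 FPKM of a 2 kb transcript stands for about 14.4 fragments, against 21.6 to 28.8 in the others. The typical value of cKO replicate 1 was high, though not that of every gene. Its median over the 12442 tested genes (those averaging 1 FPKM or more) was 8.40 FPKM, against 6.85 to 7.09 in the other 5. Each comparison was therefore repeated after median-of-ratios scaling, which sets the typical gene to the same level in every library. Hnrnpl itself stood at 101, 81.5 and 85.2 FPKM in cKO and, in wild type, at 104, 93.8 and 102 FPKM, with a difference of -0.17 (SE 0.13, adjusted p = 0.571) on the log2 scale. After scaling the difference was -0.26 (SE 0.081, adjusted p = 0.15), and all 3 cKO values, 84.2 to 87.5, lay below all 3 wild type values, 95.4 to 107. A gene-level value in a tissue with many somatic cells is a weak check of the genotype. Of 14 germ cell markers, all passed a mean of 1 FPKM, as did 11 of 12 markers of pregranulosa and granulosa cells, so the 2 cell types that define the tissue were both represented.

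None of the 38 genes passed the test between cKO and wild type ovaries. With limma on log2(FPKM + 1) and Benjamini-Hochberg adjustment over all 12442 tested genes, 0 of 38 members had an adjusted p under 0.05 in either direction. Among all tested genes 0.121% did, of which 6 rose and 9 fell. With median-of-ratios scaling the members called again numbered 0, against 1.29% of all genes, of which 95 rose and 66 fell. At an unadjusted p under 0.05, 4 members were higher (10.5%) and 0 lower, where 9.89% of all genes were higher and 4.26% lower. After scaling these were 4 higher and 3 lower (7.89%), against 9.53% and 9.41% of all genes. The smallest adjusted p among the members was 0.213, for Atg101. In bulk tissue fewer cells of a type and less RNA per cell cannot be told apart.

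The intervals give a range for the differences in whole-ovary RNA between these libraries, gene by gene and without adjustment for the number of genes. They do not bound a difference within germ cells alone, which was not measured. The 95% interval of the log2 fold change lay within a 2-fold change either way for all 38 members, before and after scaling. It lay within 1.5-fold for 31 of 38, and for 36 of 38 after scaling. The interval with the highest bound was -0.058 to 0.76, for Ctsd. These are on the log2(FPKM + 1) scale, which understates changes of the lowest members, Atg10, Neu1 and Tfeb.

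**Figure D1:**
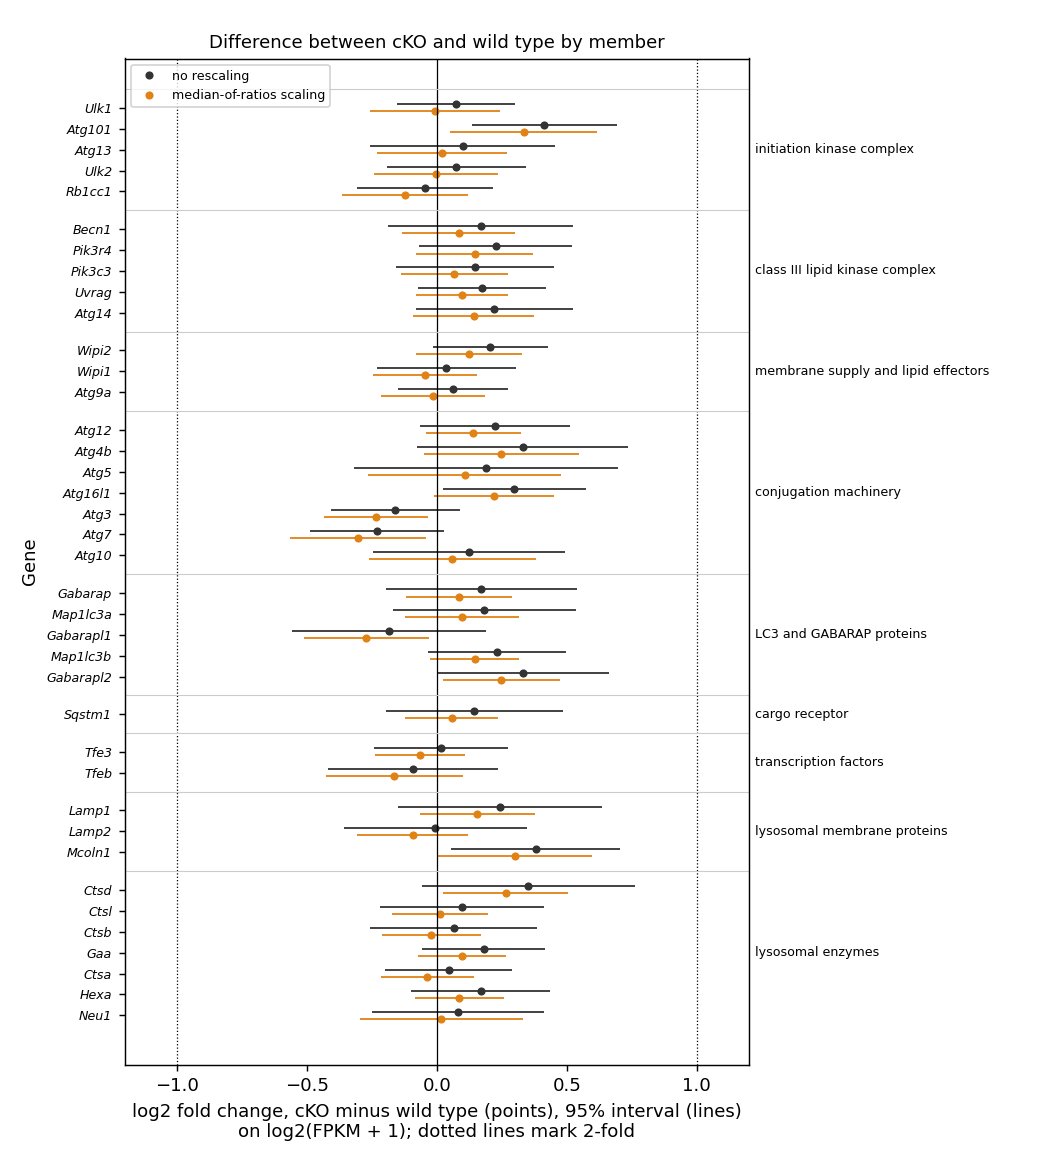
Log2 fold change of each of the 38 members (points, cKO minus wild type, on log2(FPKM + 1)) with its 95% interval (lines), before and after median-of-ratios scaling, in order of role. All intervals lie inside the dotted lines at 2-fold, and most cross 0.

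The members' values are counted here beside those of all tested genes, as a description with no test. Of the 38, 32 had a positive log2 fold change (84.2%), against 65.2% of all tested genes, and their median was 0.16, against 0.077. After scaling 25 were positive (65.8%, against 50% of all genes), with a median of 0.075, against 0.00035. The library labelled cKO replicate 1 was the highest of the 6 libraries for 31 of the 38 members (81.6%), as it was for 58% of all tested genes. Without it the members' median was 0.026 and that of all genes -0.00017, and 25 of 38 were positive. Of the 32 positive log2 fold changes 7 turned negative without it, and 19 more became smaller by over 1.5 times. Rescaling each library to TPM, so that all sum to the same total, turned the sign: the members' median was -0.033 with 12 of 38 positive, and the median of all genes was -0.12. The members' median thus lay 0.082 above that of all genes, against 0.081 with no rescaling.

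**Figure D2:**
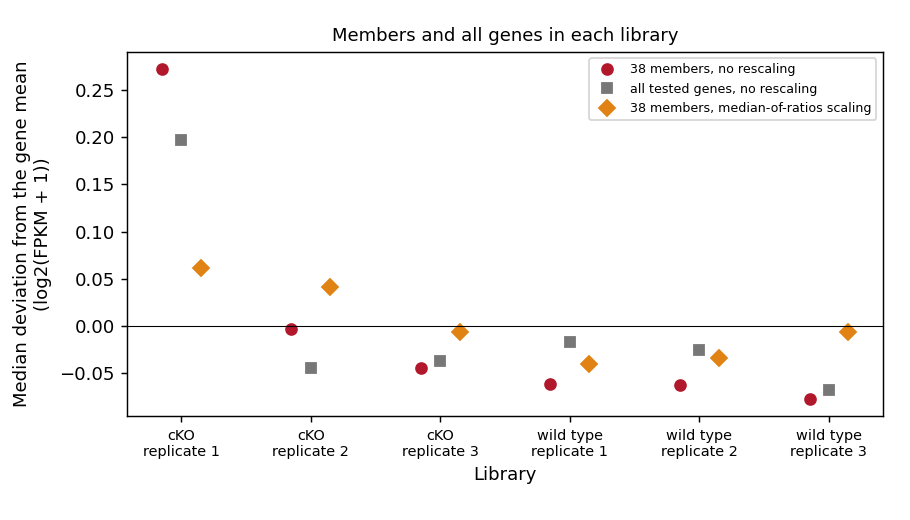
Median deviation of log2(FPKM + 1) from each gene's mean, by library, for the 38 members before and after median-of-ratios scaling and for all 12442 tested genes before it. Without scaling cKO replicate 1 stands at 0.27 for the members and 0.20 for all genes, while the other 5 libraries lie between -0.077 and -0.0033.

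As a check on separation, the 3 cKO values did not overlap the 3 wild type values in 9 of 38 members (23.7%), near the 22.6% of all tested genes. Of those 9, Atg12, Atg16l1, Atg101, Map1lc3b, Wipi2, Uvrag, Gaa and Mcoln1 were higher in cKO (15.5% of all genes were) and Atg7 was lower (7.03% of all genes were). After scaling the groups did not overlap in 8 members (21.1%, against 25.6% of all genes), and 6 of them were among the 9. With 3 against 3 libraries an exact two-sided permutation test cannot give less than 0.1, the value that each non-overlapping gene gets.

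**Figure D3:**
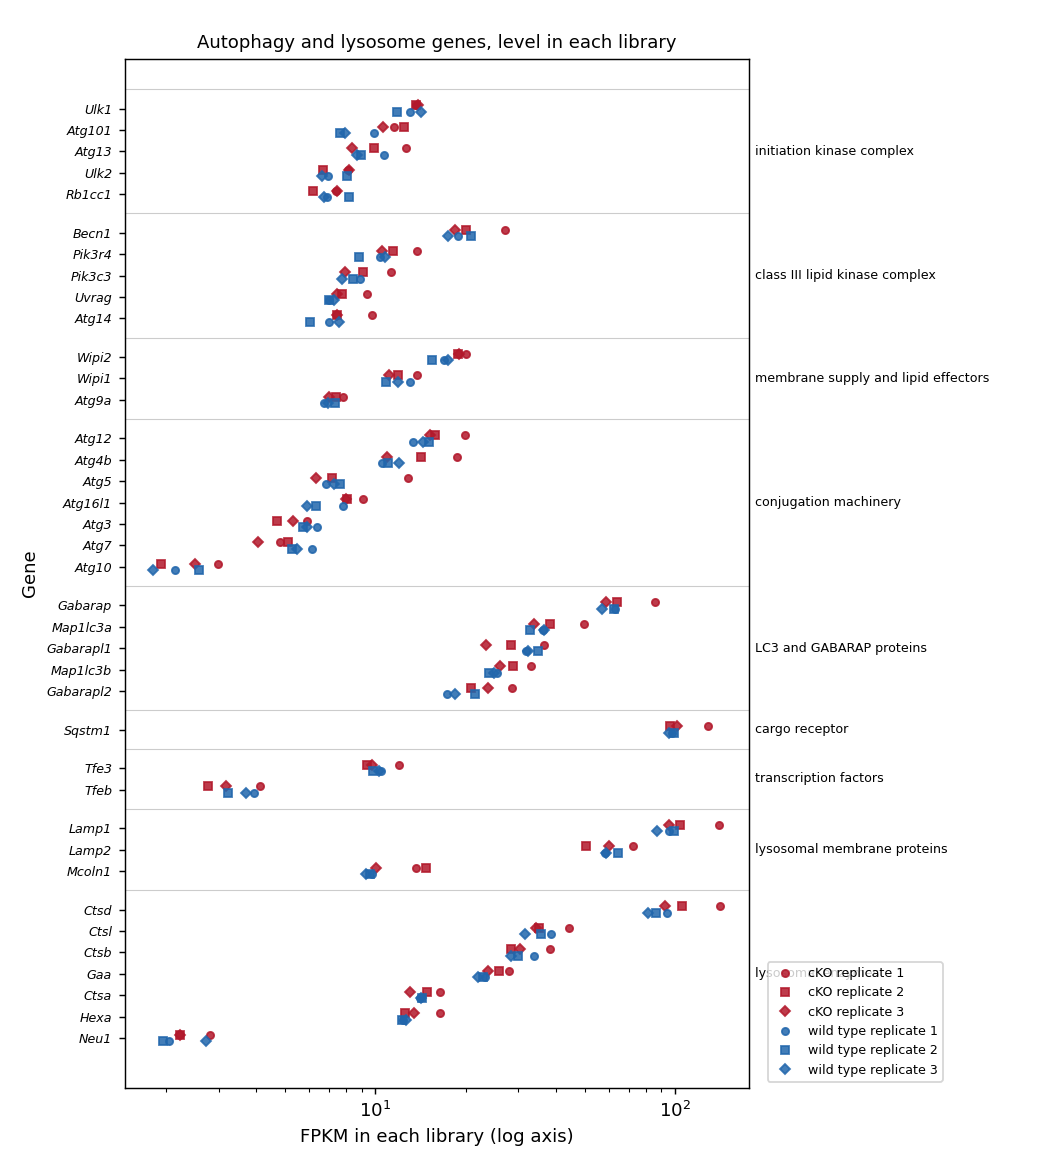
FPKM of each member in each of the 6 libraries, on a log axis, in order of role and of level. Red points are cKO, blue points wild type, and the shapes mark the replicate numbers. The mean levels run from 104 FPKM for Lamp1 down to 2.33 FPKM for Atg10, and cKO replicate 1 is the rightmost point for most genes.

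The most abundant members were Lamp1, Sqstm1 and Ctsd, with means over the 6 libraries of 104, 103.1 and 100.1 FPKM, above 98% or more of the tested genes. Their order is not resolved, since each varied more between libraries than the 3 differed from each other. Gabarap (65.1 FPKM) and Lamp2 (60.7 FPKM) followed, again closer to each other than their spread. At the other end stood Tfeb (3.49 FPKM), Neu1 (2.34 FPKM) and Atg10 (2.33 FPKM). The genes of the initiation and lipid kinase complexes lay in between, from 7.15 FPKM for Rb1cc1 to 20.4 FPKM for Becn1.

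The initiation complex joins the ULK kinases to the scaffold RB1CC1 and to ATG13 and ATG101, which hold each other through related domains. Atg101 had the smallest p of all members and stood at 11.6, 12.5 and 10.6 FPKM in cKO replicates 1, 2 and 3, against 9.89, 7.60 and 7.91 FPKM in the wild type replicates. All 3 cKO values lay above all 3 wild type values, although the gap between the nearest of them was small, and the log2 fold change was 0.41 (SE 0.12, adjusted p = 0.213). After scaling cKO replicate 1 lay between wild type values, and the log2 fold change was 0.33 (SE 0.12, adjusted p = 0.202). Ulk1 stood at 13.7 ± 0.150 FPKM in cKO and, in wild type, at 13 ± 1.15 FPKM (SD, n = 3). Ulk2 stood at 7.64 ± 0.844 and 7.21 ± 0.742 FPKM in cKO and wild type (SD, n = 3), and both kinase genes had a log2 fold change of 0.074. The log2 fold change of Atg13 was 0.10. Rb1cc1 stood at 7.02 ± 0.702 and 7.27 ± 0.772 FPKM in cKO and wild type (SD, n = 3), with a log2 fold change of -0.045 before scaling and -0.12 after it. Before scaling it was the 1 gene of these 5 below 0. After scaling Ulk1 (-0.0079) and Ulk2 (-0.0031) were also below 0.

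PIK3C3 is the lipid kinase that marks the forming membrane with phosphatidylinositol 3-phosphate, and PIK3R4 and BECN1 are its constant partners. ATG14 directs the complex to autophagosomes and UVRAG to endosomes. All 5 genes had positive log2 fold changes, from 0.15 for Pik3c3 to 0.23 for Pik3r4, and after scaling from 0.067 to 0.15, while with TPM 2 of the 5 were positive. None of them passed. Pik3r4 stood at 13.8, 11.4 and 10.5 FPKM in cKO and, in wild type, at 10.4, 8.82 and 10.8 FPKM. Becn1 stood at 27, 20.0 and 18.4 FPKM in cKO and, in wild type, at 18.8, 20.9 and 17.5 FPKM. In both genes cKO replicate 1 was the highest library and the other cKO values lay among the wild type ones or close to them. Becn1 had a log2 fold change of 0.17 (SE 0.15, adjusted p = 0.624), which was 0.011 without cKO replicate 1. Uvrag stood at 8.17 ± 1.03 FPKM in cKO and, in wild type, at 7.09 ± 0.147 FPKM and Atg14 at 8.22 ± 1.34 and 6.88 ± 0.753 FPKM in the same order (SD, n = 3). Pik3c3 stood at 9.45 ± 1.71 FPKM in cKO and, in wild type, at 8.36 ± 0.563 FPKM (SD, n = 3).

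ATG9A is a lipid scramblase on the vesicles that seed the membrane, and WIPI1 and WIPI2 bind the lipid made by PIK3C3. Wipi2, which brings the conjugation machinery to the membrane, stood at 20.1, 18.8 and 19 FPKM in cKO and, in wild type, at 16.9, 15.5 and 17.4 FPKM. The groups did not overlap before scaling and did after it. Wipi2 had a log2 fold change of 0.21 (SE 0.096, adjusted p = 0.378), and 0.12 after scaling. Wipi1 stood at 12.3 ± 1.40 FPKM in cKO and, in wild type, at 11.9 ± 1.08 FPKM and Atg9a at 7.39 ± 0.393 and 7.03 ± 0.303 FPKM in the same order (SD, n = 3).

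Conjugation attaches LC3 and GABARAP proteins to lipid, much as ubiquitin is attached to its targets. ATG7 is the activating enzyme, ATG3 and ATG10 are the conjugating enzymes for LC3 and for ATG12, and the ATG12, ATG5 and ATG16L1 assembly sets the site. Atg7, on chromosome 6 from 114643127 to 114860604 (GRCm38), stood at 4.80, 5.13 and 4.07 FPKM in cKO and, in wild type, at 6.16, 5.27 and 5.49 FPKM. All cKO values were below all wild type values, which before scaling was so in no other member. Its log2 fold change was -0.23 (SE 0.11, adjusted p = 0.396), and after scaling -0.30 (SE 0.11, adjusted p = 0.208). Atg3, which acts on LC3 directly after ATG7, stood at 5.90, 4.69 and 5.30 FPKM in cKO and, in wild type, at 6.39, 5.74 and 5.91 FPKM. There the groups overlapped before scaling and not after it, with scaled values of 5.02, 4.85 and 5.44 in cKO against 6.46, 5.84 and 6.22 in wild type. Before scaling the log2 fold change was -0.16 (SE 0.11, adjusted p = 0.516), and after it -0.23 (SE 0.088, adjusted p = 0.209).

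The site-setting assembly had positive values instead. Atg16l1 stood at 9.12, 8.06 and 7.99 FPKM in cKO and, in wild type, at 7.77, 6.32 and 5.91 FPKM, with a log2 fold change of 0.30 (SE 0.12, adjusted p = 0.324). Atg12 stood at 19.9, 15.8 and 15.2 FPKM in cKO and, in wild type, at 13.4, 15.1 and 14.4 FPKM, with a log2 fold change of 0.22 (SE 0.12, adjusted p = 0.446). In both the lowest cKO value was just above the highest wild type value. After scaling that no longer held for Atg16l1, where cKO replicate 1 (7.76) lay below wild type replicate 1 (7.86). The scaled log2 fold changes were 0.22 for Atg16l1 and 0.14 for Atg12. Atg5, their partner, stood at 12.8, 7.16 and 6.36 FPKM in cKO and, in wild type, at 6.86, 7.61 and 7.30 FPKM, so that only cKO replicate 1 was above the wild type range. Its log2 fold change of 0.19 became -0.09 without that library. Atg4b, the protease that trims LC3 before conjugation and frees it afterwards, stood at 18.7, 14.2 and 10.9 FPKM in cKO and, in wild type, at 10.5, 11 and 12 FPKM. Again cKO replicate 1 was far above the rest, and the log2 fold change of 0.33 (SE 0.18, adjusted p = 0.429) was 0.15 without it. Replicate 2 of cKO also lay above all wild type values. After scaling cKO replicates 1, 2 and 3 stood at 15.9, 14.7 and 11.2, against 10.7 to 12.6 in wild type. The scaled log2 fold change was 0.25 (SE 0.13, adjusted p = 0.349). Atg10, at 2.48 ± 0.530 FPKM in cKO and, in wild type, at 2.18 ± 0.385 FPKM (SD, n = 3), was near the low end of the members' levels.

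The LC3 and GABARAP proteins are the tags on the membrane that cargo receptors and fusion factors grip. Map1lc3b stood at 33, 28.9 and 26.1 FPKM in cKO and, in wild type, at 25.4, 24 and 24.9 FPKM. The groups did not overlap before or after scaling, and the log2 fold change was 0.23 (SE 0.11, adjusted p = 0.407), or 0.15 with scaling. Gabarapl2 stood at 28.7, 20.8 and 23.7 FPKM in cKO and, in wild type, at 17.3, 21.5 and 18.4 FPKM. Here cKO replicate 2 lay below wild type replicate 2, and the log2 fold change was 0.33 (SE 0.14, adjusted p = 0.348). Gabarapl1 had a negative value instead. It stood at 36.4, 28.3 and 23.3 FPKM in cKO and, in wild type, at 31.7, 35 and 32.3 FPKM, with cKO replicates 2 and 3 below all wild type libraries and cKO replicate 1 above them. After scaling its values were 31, 29.3 and 23.9 in cKO against 32.1, 35.6 and 34 in wild type, and the groups no longer overlapped. The scaled log2 fold change was -0.27 (SE 0.10, adjusted p = 0.219). Before scaling it was -0.18 (SE 0.16, adjusted p = 0.61). Gabarap, the most abundant of the 5, stood at 69.5 ± 14.3 FPKM in cKO and, in wild type, at 60.8 ± 3.33 FPKM and Map1lc3a at 40.5 ± 8.11 and 35.1 ± 2.13 FPKM in the same order (SD, n = 3), both with cKO replicate 1 as the highest library.

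SQSTM1, also called p62, ties ubiquitin-marked cargo to LC3 and is itself degraded by autophagy, though at the protein level, which was not measured. Sqstm1 stood at 129, 96.1 and 102 FPKM in cKO and, in wild type, at 97.7, 99.4 and 95.5 FPKM. Apart from cKO replicate 1 the libraries lay within a narrow band, in which the groups overlapped. The log2 fold change was 0.14 (SE 0.15, adjusted p = 0.664), and 0.019 without cKO replicate 1.

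The transcription factors of the pathway did not pass either. Tfeb stood at 4.13, 2.77 and 3.18 FPKM in cKO and, in wild type, at 3.93, 3.22 and 3.71 FPKM. Tfe3, the more abundant on the FPKM scale, stood at 12, 9.38 and 9.75 FPKM in cKO and, in wild type, at 10.5, 9.80 and 10.3 FPKM. Both genes had overlapping groups with cKO replicate 1 as the highest library and cKO replicate 2 as the lowest. Tfeb had a log2 fold change of -0.093 (SE 0.14, adjusted p = 0.777). That of Tfe3 was 0.016 (SE 0.11, adjusted p = 0.957), and -0.065 after scaling.

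Lysosomal membrane proteins protect the membrane and carry ions across it. Mcoln1 encodes a calcium channel that TFEB both responds to and switches on, and lies on chromosome 8 from 3500519 to 3515232 (GRCm38). It stood at 13.7, 14.8 and 10.1 FPKM in cKO and, in wild type, at 9.72, 9.57 and 9.31 FPKM. The wild type libraries were close together, and all cKO libraries lay above them, with replicate 3 only slightly so. The difference came to 0.38 (SE 0.14, adjusted p = 0.296) on the log2 scale, and 0.30 (SE 0.13, adjusted p = 0.259) after scaling. Lamp1 stood at 140.1, 104 and 95.1 FPKM in cKO and, in wild type, at 95.7, 99.4 and 87.2 FPKM, with the groups overlapping. Lamp2, the other main glycoprotein of that membrane, stood at 72.5, 50.3 and 60.0 FPKM in cKO and, in wild type, at 58.5, 64.5 and 58.6 FPKM, also with overlapping groups. The log2 fold change was 0.24 (SE 0.17, adjusted p = 0.532) for Lamp1, which was 0.16 after scaling and 0.08 without cKO replicate 1. For Lamp2 it was -0.0052 (SE 0.15, adjusted p = 0.987).

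Lysosomal enzymes break down the delivered cargo. Ctsd, the aspartic protease cathepsin D, stood at 142, 105 and 92.4 FPKM in cKO and, in wild type, at 94.1, 86.2 and 81 FPKM. The groups overlapped, since cKO replicate 3 was below wild type replicate 1. For Ctsd the log2 fold change was 0.35 (SE 0.18, adjusted p = 0.412), 0.26 (SE 0.10, adjusted p = 0.226) after scaling, and 0.18 without cKO replicate 1. Gaa, the acid glucosidase that digests glycogen, stood at 28, 25.8 and 23.8 FPKM in cKO and, in wild type, at 23.2, 22.9 and 22 FPKM. Its groups did not overlap before or after scaling, by a small margin, with a log2 fold change of 0.18 (SE 0.10, adjusted p = 0.45). Among the cysteine proteases Ctsb stood at 32.3 ± 5.24 FPKM in cKO and, in wild type, at 30.7 ± 2.74 FPKM and Ctsl at 38 ± 5.47 and 35.3 ± 3.41 FPKM in the same order (SD, n = 3). Ctsa, which also shields the sialidase NEU1, stood at 14.8 ± 1.64 FPKM in cKO and, in wild type, at 14.2 ± 0.115 FPKM (SD, n = 3). Neu1 stood at 2.43 ± 0.341 and 2.25 ± 0.412 FPKM in the same order (SD, n = 3). Hexa, a subunit of the hexosaminidase that clears gangliosides, stood at 14.2 ± 2.04 FPKM in cKO and, in wild type, at 12.4 ± 0.206 FPKM (SD, n = 3).

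The 4 genes whose promoters are printed above thus had log2 fold changes of 0.38 (Mcoln1), 0.35 (Ctsd), 0.046 (Ctsa) and -0.16 (Atg3), none of which passed. After scaling they were 0.30, 0.26, -0.037 and -0.23. These values lay on both sides of 0, and that of Ctsa changed sign under 11 of 21 other settings. Whether the 8 letters have a part in any of them was not tested.

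Other genes of the pathway were read from 6 further lists, named for their function. Beside their counts stand those of all tested genes, of which 65.2% were positive before scaling and 50% after it. The median of all tested genes was 0.077 before scaling, 0.00035 after it and -0.12 with TPM. Of 29 tested genes of the remaining autophagy machinery 0 passed, and 24 had positive log2 fold changes, with a median of 0.13. After scaling 16 were positive with a median of 0.053, and with TPM 7, with a median of -0.058. The smallest p belonged to Epg5, a tether for fusion with the lysosome, and Wdr45b, a relative of the WIPI proteins, with log2 fold changes of 0.28 and 0.32. Of 18 receptors for selective autophagy and their partners 0 passed, with 15 positive and a median of 0.14, which was 0.063 after scaling with 12 positive and -0.049 with TPM. Bnip3, a receptor on mitochondria, stood at 16.5, 8.90 and 7.35 FPKM in cKO and, in wild type, at 5.74, 5.48 and 4.67 FPKM. The groups did not overlap, and its difference was 0.85 (SE 0.25, adjusted p = 0.218) on the log2 scale. Tollip, an adaptor for aggregated proteins, stood at 20.9 ± 4.47 FPKM in cKO and, in wild type, at 14.4 ± 1.47 FPKM (SD, n = 3; log2 fold change 0.49).

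The subunits of the vacuolar ATPase, the proton pump that acidifies the lysosome, had 15 of 17 values above 0, with a median log2 fold change of 0.27, or 0.18 after scaling with 14 positive and 0.076 with TPM with 11 positive. None of the 17 passed before or after scaling. The summed FPKM of these genes was 334 to 489 in cKO and 305 to 334 in wild type, with cKO replicate 1 the highest. Atp6v0b had a log2 fold change of 0.72 (SE 0.21, adjusted p = 0.222) at 28.3 ± 8.55 FPKM in cKO and, in wild type, at 16.4 ± 2.65 FPKM (SD, n = 3), and Atp6v1c1 one of 0.41 (SE 0.13, adjusted p = 0.248). Of the remaining hydrolases and their cofactors 21 of 40 were positive, with a median of 0.032, and 13 of 40 after scaling, with a median of -0.049. With TPM 6 of these 40 were positive, with a median of -0.17. None of the 40 passed. Ctsf and Ctsc, both cysteine proteases, had log2 fold changes of 0.31 and -0.35. Of 27 tested genes of the lysosomal membrane and of sorting to it 0 passed, with 16 positive and a median of 0.047. With scaling that median turned to -0.017, with 11 positive, and with TPM to -0.13, with 4 positive. Cln3, a lysosomal membrane protein lost in a childhood storage disease, and Tpcn1, an ion channel, had log2 fold changes of 0.34 and -0.23.

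Of 13 tested regulators of the pathway 0 passed before scaling, and 1 was higher and 0 lower after it. Their median was 0.028 with 8 positive, and -0.05 after scaling with 5 positive. With TPM the median was -0.17, again with 5 positive. The gene that passed was Sesn2, a leucine sensor that restrains mTORC1 and is induced by stress. It stood at 8.55, 6.86 and 6.14 FPKM in cKO and, in wild type, at 4.58, 4.40 and 3.97 FPKM, and the groups did not overlap. The log2 fold change was 0.61 (SE 0.13, adjusted p = 0.127) before scaling and 0.54 (SE 0.091, adjusted p = 0.0387) after it. That call ended without any 1 of the 6 libraries, with scaled adjusted p of 0.0524 to 0.181, with replicate numbers as a block (0.0949) and with TPM (0.0972). Fnip2, a partner of folliculin in the control of TFEB and TFE3, had a log2 fold change of 0.46 (SE 0.098, adjusted p = 0.133).

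**Figure D4:**
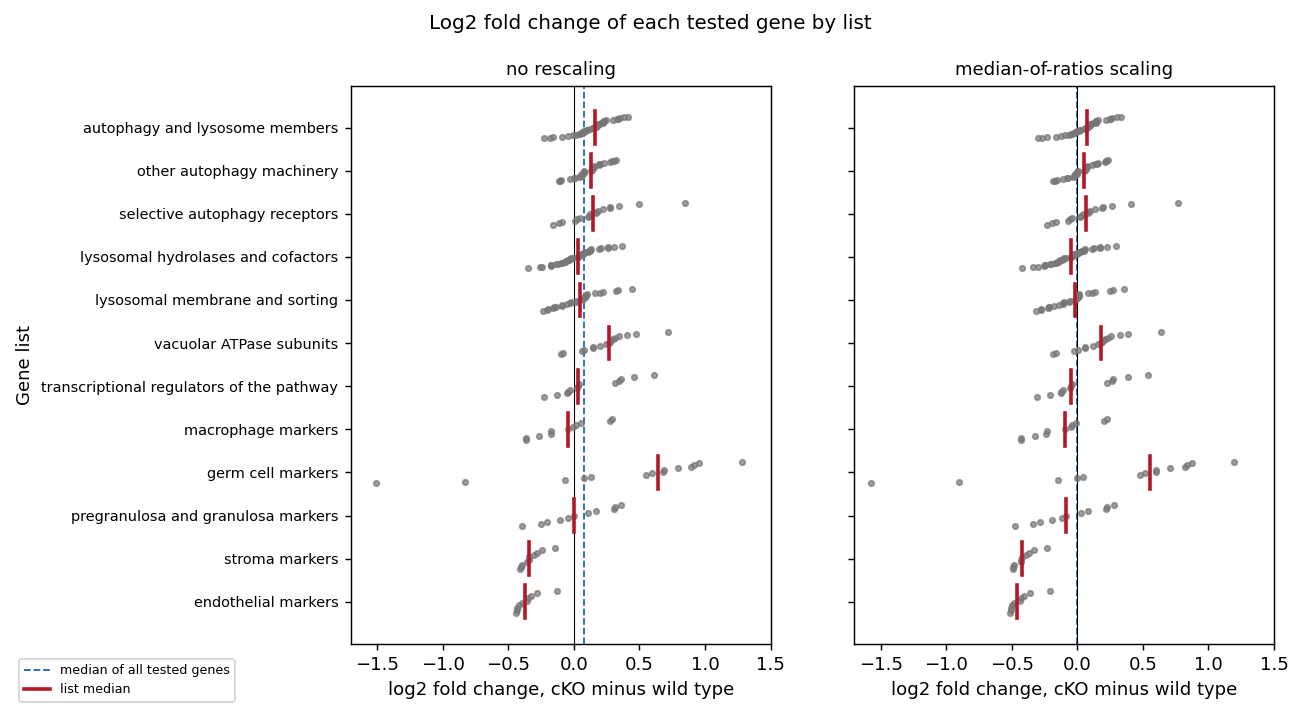
Log2 fold change (cKO minus wild type) of each tested gene of 12 lists, before scaling on the left and after median-of-ratios scaling on the right. Grey points are genes, red bars list medians and the dashed line the median of all tested genes. The members' median lies at 0.16 on the left and 0.075 on the right, and the stroma and endothelial markers lie below 0 in both.

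The summed levels of cell type markers stand beside these values, and their part in them was not tested. Lysosomes are prominent in macrophages, whose 16 markers summed to 26.7 to 34.3 FPKM in cKO and 26.5 to 38.6 FPKM in wild type, ranges that overlap. Of these 5 had a mean under 1 FPKM, namely Adgre1, Cd14, Ptprc, Aif1 and Itgam. Of the 11 tested, 4 had positive log2 fold changes before scaling and 2 after it, with medians of -0.044 and -0.097. The 14 germ cell markers summed to 212 to 378 FPKM in cKO and 171 to 187 FPKM in wild type, ranges that do not overlap, with cKO replicate 1 the highest. These sums do not speak for each marker, since abundant ones weigh most. Before scaling 8 of the 14 were higher in cKO without overlap and 2 were lower. The groups of the others overlapped, among them Ddx4. Its means were 4.80 (cKO) and 4.97 FPKM (wild type), with a log2 fold change of -0.069, or -0.14 after scaling. Of the 14 markers 11 had positive log2 fold changes, but before scaling the 1 gene that passed fell. This was Zp3, a coat protein of the egg, with a log2 fold change of -1.51 (adjusted p = 0.0437). That call ended without any 1 library other than wild type replicate 3 (adjusted p of 0.0512 to 0.269), with no filter (0.106) and with the replicate block (0.0617). After scaling, where 1.29% of all tested genes were called, 4 of the 14 rose (Dazl, Sohlh1, Kit and Tex15). Another 2 fell, Zp3 and the oocyte growth factor gene Gdf9. All 6 of these scaled calls ended without cKO replicate 2 (0.0707 to 0.166) and without wild type replicate 1 (0.147 to 0.227), and some also without others. With TPM Kit did not pass (adjusted p = 0.0517), while the others did. Scaled sums of the list were 217 to 321 in cKO and 179 to 189.9 in wild type.

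The 10 stroma markers summed to 812 to 893 FPKM in cKO and 1055 to 1102 FPKM in wild type, again without overlap. The 10 endothelial markers summed to 86.0 to 110.8 FPKM in cKO and 107.9 to 138.2 FPKM in wild type, where cKO replicate 1 alone reached the wild type range. After scaling the endothelial sums were 88.9 to 94.3 in cKO and 113.6 to 139.8 in wild type and did not overlap. The 7 erythroid markers summed to 463 to 534 FPKM in cKO and 772 to 837 FPKM in wild type. Of the 5 that were tested, 4 had negative log2 fold changes and 1 a positive one. Before scaling the groups of each of them overlapped. Stroma and erythroid sums did not overlap after scaling either, and macrophage sums still did. All 10 stroma and all 10 endothelial markers had negative log2 fold changes. None of the tested stroma, endothelial, erythroid, macrophage, pregranulosa and granulosa markers passed before scaling. After it Nr2f2 (stroma) and Rspo1 (pregranulosa) fell, with log2 fold changes of -0.49 and -0.48. The 12 markers of pregranulosa and granulosa cells summed to 466 to 583 FPKM in cKO and 476 to 480.3 FPKM in wild type, which overlap. Of all these markers Aif1 was the 1 listed at 0 in any library.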

How the data were processed

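The libraries, 3 cKO and 3 wild type, were grouped by their titles. The authors deposited 1 table of FPKM values for 25164 symbols, with 6 columns whose names each fit the title of a single sample. Per the submitters' processing notes the tools were STAR 2.7.11a, HISAT2 2.2.1 and featureCounts 2.0.6, with mm10 as the build and no role stated for any tool. The sources used here do not say what computed FPKM or from which annotation, while the name of the file points to removal of duplicate reads. FPKM carries no read number, so a few abundant RNAs can shift all other values of a library. Depth was estimated from FPKM steps of 7122 genes with 1 transcript of at least 1500 bp in GENCODE M21, assuming fragments of 200 bp.

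Genes averaging 1 FPKM or more were taken to log2(FPKM + 1) and compared by limma 3.58.1 in R 4.3.3 (intensity trend, two-sided, Benjamini-Hochberg over 12442 genes, called at an adjusted p under 0.05). Every p in the text is from limma unless it is named as exact. The steps were also run on simulated data, with no outcome given here, so how often small changes would be called is not stated. All 38 members passed the filter. Other settings changed the pseudocount (0.1 FPKM), the filter (none, or a mean of 5 FPKM), the scaling (median of ratios, quantile or TPM) or the libraries (each left out in turn), or added a replicate block. Scaling combined with a left-out library, the block or the other pseudocount was added after seeing the data. Gene coordinates and promoters came from RefSeq (GRCm38.p6), the assembly that mm10 names. Values in each library are given for the 12 members with the smallest p and for Sqstm1, Map1lc3b, Gabarapl1, Becn1, Tfeb, Tfe3, Lamp1, Lamp2 and Ctsd. Atg3, Atg5 and the named cell type markers were added after their values were seen. From each other pathway list the 2 genes with the smallest p are named. Members and lists were chosen with earlier results of these data known.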

Additional observations from a re-analysis of the deposited data

How the results depend on the processing

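No member was called under any of the 13 planned or 8 added alternatives (795 values in all), where the smallest adjusted p was 0.104, for Atg4b. The sign of the log2 fold change turned under at least 1 of them in 23 of the 38 members. The median of the members minus that of all genes ran from 0.026 without cKO replicate 1 to 0.13 with no filter. TPM rescaling moved the median of all genes by -0.19 (log2). It left 12 of 38 members positive and put their median at -0.033. Groups did not overlap in 4 members with quantile normalization (10.5%, against 25.2% of all genes). Leaving out 1 library, where separation of 2 against 3 is easier, gave 10 to 18 such members (26.3% to 47.4%, against 29% to 37.7% of all genes) and medians of 0.026 (without cKO replicate 1) to 0.22. With scaling as well, these were 11 to 17 members (28.9% to 44.7%, against 32.9% to 41.5%) and 0.029 to 0.10.

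Genes called over the whole table, higher and lower, numbered 24 and 10 with a pseudocount of 0.1 FPKM, 0 and 5 with no filter, and 14 and 9 with a filter at 5 FPKM. They numbered 95 and 66 with median-of-ratios scaling, 131 and 105 with quantile normalization and 56 and 93 with TPM rescaling. Scaling with a pseudocount of 0.1 FPKM gave 120 and 86. Leaving out 1 library gave 0 to 9 higher and 1 to 14 lower, the highest being without cKO replicate 1. With scaling it gave 0 to 111 higher and 2 to 45 lower, the fewest without wild type replicate 1 and the most higher and lower without cKO replicates 3 (111 and 43) and 1 (38 and 45). Without cKO replicate 2 these were 3 and 6. The cause of these shifts was not tested. The replicate block, which treats cKO and wild type libraries of the same number as pairs, gave 1 and 1, and with scaling 14 and 11. Same-numbered libraries correlated at -0.011, 0.039 and 0.068 in their deviations from the group means. Libraries numbered 2 and 3 correlated best with their own number, and those numbered 1 did not. All these correlations were small, and whether same-numbered libraries share more than a number was not tested. Depth limits the lowest members, Atg10, Neu1 and Tfeb.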
